A study of Mus musculus with 89 samples.

Results

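Osteopontin (Spp1) and 8 genes of the wound matrix were followed in mouse lung after exposure to copper oxide nanomaterials: Fn1, Tnc, Thbs1, Postn, Fbln2, Sparc, Lox and Tgfb1. The 9 genes were taken by name, through the transcript accessions of the array's non-control probes, out of 22851 genes tested, and are read by 18 of 56605 probes. All mice were female BALB/c, 6-8 weeks old, and all of them, controls included, were sensitised with ovalbumin (OVA) in alum on days 1 and 10. After 10 days of recovery they received PBS or OVA by oropharyngeal aspiration on 4 exposure days, alone (the PBS- and OVA-challenged controls) or with core CuO, CuO COOH (carboxylated), CuO NH3 (aminated) or CuO PEG (PEGylated) at 2.5, 10 or 40 µg/mouse. One field of the labels gives these doses as µg/day and another gives mg per mouse. Doses were matched by mass of material, not by mass of copper. That makes 26 groups and 89 samples: 7 PBS controls, 8 OVA controls and 3 samples in each exposed group, except 4 in CuO NH3 10 and in CuO PEG 10. For each array sample 2 RNA samples were combined, and lungs were taken 24 h after the last exposure, once the airways had been lavaged. Groups are given as 8 mice each. How the 7 and 8 control samples were drawn from such groups is not stated.

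Osteopontin is a secreted phosphoprotein that binds integrins and CD44 and is produced by macrophages, epithelium and injured stroma. Fibronectin (Fn1), tenascin-C (Tnc), thrombospondin-1 (Thbs1) and periostin (Postn) are glycoproteins laid down in wounds and in remodelled airways, where they affect how cells adhere and migrate. Fibulin-2 (Fbln2) and SPARC (Sparc) bind other matrix proteins and take part in matrix assembly, lysyl oxidase (Lox) is the copper-dependent enzyme that crosslinks collagen and elastin, and transforming growth factor beta 1 (Tgfb1) is the cytokine best known for inducing many of these genes.

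The stretches of 250 bases ahead of the RefSeq starts of Spp1 and Tnc are shown because these genes had the widest ranges of group means among the 9. Capitals mark every match, on either strand, to the letters searched, which were TATAAA as the motif of a promoter's core, TGANTCA as that of the factor AP-1, ACCACA as that of Runx factors and GGGCGG as that of Sp-type factors. The Spp1 stretch is chr5:104434861-104435110 on the plus strand and the Tnc stretch is chr4:64047016-64047265 on the minus strand, both GRCm38.p6 and printed 5′ to 3′ with the base next to the start last.
Spp1: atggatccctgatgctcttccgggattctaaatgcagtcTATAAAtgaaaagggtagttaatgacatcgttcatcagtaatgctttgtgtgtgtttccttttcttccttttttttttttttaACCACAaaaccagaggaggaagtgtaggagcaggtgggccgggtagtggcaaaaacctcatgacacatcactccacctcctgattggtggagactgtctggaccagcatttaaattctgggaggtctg
Tnc: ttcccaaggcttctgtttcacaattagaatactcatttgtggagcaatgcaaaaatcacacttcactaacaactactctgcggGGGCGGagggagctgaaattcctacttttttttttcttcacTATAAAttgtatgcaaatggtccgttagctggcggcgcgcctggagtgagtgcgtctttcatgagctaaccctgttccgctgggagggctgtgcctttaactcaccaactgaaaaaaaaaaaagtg
The Spp1 stretch held a TATAAA whose first base lay 211 bases before the start and an ACCACA at 128 bases. The Tnc stretch held a GGGCGG at 167 bases and a TATAAA at 126 bases. Among 32851 such windows of all genes the core motif was held by 12.4%, the AP-1 letters by 6.75%, the Runx letters by 14% and the Sp letters by 32.7%. A match is a string of letters and no binding was measured. Windows were at hand for 6 of the 9 genes.

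The 9 genes lie apart in the genome (GRCm38.p6): Spp1 at chr5:104435111-104441053, Fn1 at chr1:71585473-71653280, Tnc at chr4:63959785-64047015, Thbs1 at chr2:118111876-118127133, Postn at chr3:54359267-54391041, Fbln2 at chr6:91212460-91272540, Sparc at chr11:55394159-55420080, Lox at chr18:52516060-52529867 and Tgfb1 at chr7:25687002-25705077. Values are log2 normalized intensities, each gene's mean over its probes, and cannot be set against each other between genes. Spp1 and Fbln2 are each read by a single probe. Samples of the same group correlated at 0.9813 or more, no spot was saturated, and 16 of the 18 probes were well above background in all 89 samples, with both Tnc probes well above background in 87 and 81 of them. Slides 1 to 3 held the CuO and CuO COOH samples beside 3 PBS-challenged and 4 OVA-challenged controls, and slides 4 to 6 held the CuO NH3 and CuO PEG samples beside the remaining 4 and 4. Fold changes against controls were fitted with dye and array as terms, so they can differ from differences between raw means by more than 1 on the log2 scale, and 3 samples that were alone on their array carried no weight in them: the CuO 2.5 + OVA contrasts then rest on 1 sample and those of CuO COOH 2.5 on 2 samples. Leaving out 1 sample in these fits likewise takes the weight from the other sample on its array. A gene was called when its adjusted p was below 0.05 and its change exceeded 1.5-fold. Because whole lung was measured, fewer cells of a type and less RNA per cell cannot be told apart.

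OVA challenge alone raised 3 of the 9 genes, Spp1, Fn1 and Thbs1, and none was called lower. Over all genes 5.22% were called in this comparison. Spp1 ran from 10.14 through a median of 10.44 to 11.15 in PBS controls and from 11.95 through 13.42 to 13.88 in OVA controls. No OVA control reached down to the highest PBS control, and the fitted difference was 2.50 (5.65-fold, SE 0.21, adjusted p = 2.06e-08). Fn1 spanned 10.6 to 11.29 in PBS controls (median 11.01) and 11.6 to 12.72 in OVA controls (median 12.04), a rise of 1.19 (2.28-fold, SE 0.16, adjusted p = 9.25e-06). For Thbs1, an adhesive glycoprotein stored in platelets and able to activate latent TGF-beta, the values were 8.1 to 8.73 (median 8.24) and 8.77 to 9.93 (median 9.49). All 8 OVA controls again lay above all PBS controls, and the rise was 1.04 (2.06-fold, SE 0.18, adjusted p = 0.000301), although the controls of slides 4 to 6 alone gave 0.59 with an adjusted p of 0.454.

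The other 6 genes were not called by OVA. Lox was 0.44 higher (adjusted p = 0.0281), under the fold threshold, with 6 of 8 OVA controls above all PBS controls. Tnc differed by 0.36 (adjusted p = 0.192), Tgfb1 by 0.37 (adjusted p = 0.393) and Fbln2 by -0.36 (adjusted p = 0.186). On each of the 6 slides the OVA controls averaged higher than the PBS controls for Spp1 (differences of 1.64 to 3.44), Fn1, Thbs1, Tnc, Lox and Tgfb1, and lower for Fbln2 (-0.68 to -0.09). Postn (-0.11, adjusted p = 0.832) and Sparc (-0.07, adjusted p = 0.819) had OVA controls higher on 2 of 6 slides.

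Spp1 had the widest range of the 9 genes, 4.53 between the lowest and the highest group mean, and its raw mean rose from 2.5 to 10 and from 10 to 40 µg/mouse with all 4 materials under both challenges. Under OVA some of these steps lay within the spread. From 2.5 to 10 µg/mouse CuO + OVA went from 14.27 to 14.46 (SD 0.52 and 0.43) and CuO COOH + OVA from 13.8 to 13.96 (SD 0.11 and 0.55). The fitted rises over OVA controls did not all follow the order of dose. In PBS-challenged mice the 3 CuO 2.5 samples read 12.05, 12.95 and 13.35, the CuO 10 samples 13.1, 13.3 and 14.06, and the CuO 40 samples 14.37, 14.59 and 14.99. Every one of these lay above the highest PBS control. The fitted rises over PBS were 1.85 (SE 0.31, adjusted p = 0.00301), 3.54 (SE 0.37, adjusted p = 1.44e-05) and 4.85 (28.8-fold, SE 0.35, adjusted p = 2.33e-08). The lowest dose was not called without CuO 2.5 replicate 3 (1.87, adjusted p = 0.0678), and the raw difference of means at 40 µg/mouse was 4.07, with 3.83 from slide and position in place of array.

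With CuO COOH, Spp1 read 11.61, 11.13 and 11.91 at 2.5 µg/mouse, 13.67, 13.45 and 14.48 at 10, and 15.02, 15.2 and 15.1 at 40. The lowest of the 3 values at the lowest dose fell inside the range of the PBS controls, and the samples at 40 formed the highest group of all 26. The rises were 2.27 (SE 0.38, adjusted p = 0.00904), 4.48 (22.3-fold, SE 0.38, adjusted p = 6.7e-07) and 5.55 (46.9-fold, SE 0.34, adjusted p = 9.72e-10). The raw differences of means were smaller, 0.97, 3.29 and 4.53, within-slide differences at 40 µg/mouse ran from 4.08 to 4.76, and with slide and position in place of array the upper doses gave 3.07 and 4.31. The first of these rests on 2 samples, was not called without either of them (2.29 and 2.25, adjusted p = 0.22 and 0.444 without replicates 1 and 3) and was 0.78 (adjusted p = 0.484) with slide and array position in place of array.

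Aminated CuO gave a similar ladder. Spp1 was 12.09, 11.7 and 11.69 in CuO NH3 2.5, between 12.98 and 13.83 (median 13.32, n = 4) in CuO NH3 10, and 14.69, 14.7 and 14.28 in CuO NH3 40. All of these samples exceeded all PBS controls. The fitted rises were 1.66 (SE 0.29, adjusted p = 0.00506), 3.38 (10.4-fold, SE 0.25, adjusted p = 5.84e-08) and 4.44 (21.6-fold, SE 0.25, adjusted p = 5.72e-11). The first was 1.35 (adjusted p = 0.125) without CuO NH3 2.5 replicate 3, 1.43 (adjusted p = 0.0779) without PBS replicate 5 and 1.64 (adjusted p = 0.203) with samples of slides 4 to 6 only.

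PEGylated CuO gave lower Spp1 readings than the other materials at each dose. At 2.5 µg/mouse the samples read 10.18, 10.25 and 10.53, inside the range of the PBS controls, with a fitted difference of -0.48 (SE 0.34, adjusted p = 1). At 10 µg/mouse they read 12.17, 11.63, 11.32 and 10.97, a rise of 1.04 (2.05-fold, SE 0.18, adjusted p = 0.00346), with the lowest sample still inside the control range. At 40 µg/mouse they read 13.43, 13.47 and 13.34, all above the controls, a rise of 2.88 (7.35-fold, SE 0.29, adjusted p = 1.31e-05).

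Under OVA challenge Spp1 started from higher controls. The CuO + OVA samples read 14.76, 13.72 and 14.32 at 2.5 µg/mouse, 14.57, 14.81 and 13.98 at 10, and 14.39, 15.21 and 14.88 at 40. CuO COOH + OVA gave 13.9, 13.81 and 13.68, then 14.24, 13.32 and 14.31, then 14.98, 15.22 and 15.04. At 40 µg/mouse all samples of both materials lay above the highest OVA control (13.88), and the rises over OVA controls were 2.68 (6.39-fold, SE 0.35, adjusted p = 0.000195) and 1.8 (3.48-fold, SE 0.25, adjusted p = 0.000129). The CuO value was 1.54 with slide and position in place of array (adjusted p = 0.000307), still called.

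CuO NH3 + OVA samples read 14.4, 14.4 and 14.24 at the lowest dose, 14.4, 14.65 and 14.49 at the middle dose and 15.3, 14.9 and 14.82 at the highest, so all 9 exceeded every OVA control. The rises were 1.7 (SE 0.24, adjusted p = 0.00178), 2.43 (SE 0.27, adjusted p = 4.9e-05) and 2.13 (4.39-fold, SE 0.27, adjusted p = 0.000129). The first was 0.93 (adjusted p = 0.737) without CuO NH3 2.5 + OVA replicate 2 or without OVA replicate 6, which share an array, and the second had an adjusted p of 0.061 without CuO NH3 10 + OVA replicate 3 or OVA replicate 7. CuO PEG + OVA gave 11.88, 12.32 and 12.7, then 14.01, 13.8 and 13.57, then 14.11, 13.67 and 14.56. Only the highest dose was called against OVA (1.95, SE 0.29, adjusted p = 0.00789, and 1.88 with an adjusted p of 0.144 without CuO PEG 40 + OVA replicate 3). At 10 µg/mouse + OVA the calls of CuO (1.72, SE 0.29, adjusted p = 0.0101) and CuO COOH (1.36, SE 0.24, adjusted p = 0.0093) were each lost without single samples, the former at 1.73 (adjusted p = 0.124) without CuO 10 + OVA replicate 2 and the latter at 1.25 (adjusted p = 0.157) without CuO COOH 10 + OVA replicate 3. The CuO COOH value was 0.71 (adjusted p = 0.305) with slide and position as terms. Spp1 in CuO 2.5 + OVA differed by 2.39 on 1 sample (adjusted p = 0.655).

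Ordered by raw mean, Spp1 ran from CuO PEG 2.5 (10.32) and PBS (10.58) through CuO PEG 10 (11.52), CuO COOH 2.5 (11.55), CuO NH3 2.5 (11.83) and CuO PEG 2.5 + OVA (12.3) to CuO 2.5 (12.78) and OVA alone (13.12). The next 8 groups lay between CuO NH3 10 (13.36) and CuO PEG 40 + OVA (14.11), with CuO PEG 40 at 13.41 and CuO 10 at 13.49. The top 10 lay between CuO 2.5 + OVA (14.27) and CuO COOH 40 (15.11), with the same material + OVA next at 15.08. Of the 25 neighbouring pairs in this order 23 differed by no more than their spread. The exceptions were the steps from PBS to CuO PEG 10 and from CuO NH3 2.5 to CuO PEG 2.5 + OVA.

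**Figure D1:**
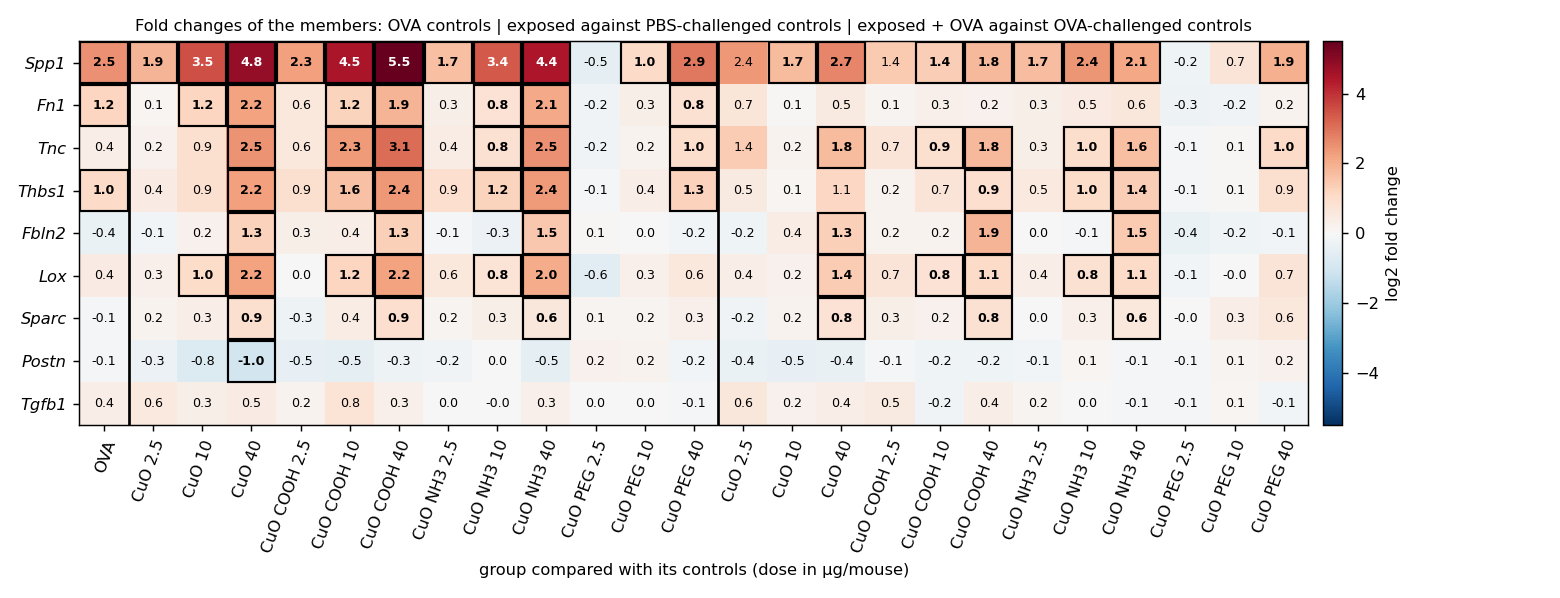
Log2 fold changes of the 9 genes in OVA controls against PBS controls (first column), in exposed PBS-challenged groups against PBS controls (next 12 columns, dose in µg/mouse) and in exposed OVA-challenged groups against OVA controls (last 12); framed bold values were called. Calls gather in the 40 µg/mouse columns of CuO, CuO COOH and CuO NH3, and Spp1 was called in 11 of 12 comparisons with PBS controls.

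Across the 108 comparisons of a gene with PBS controls 43 were called, 42 higher and 1 lower. With CuO the calls were 1 gene at 2.5 µg/mouse (0.91% of all genes were called), 3 at 10 (3.57%) and 8 at 40 (14%). CuO COOH gave 1 (0.346%), 5 (3.61%) and 7 (10.3%), CuO NH3 gave 1 (0.937%), 5 (3.37%) and 7 (13.2%), and CuO PEG gave 0 (0%), 1 (0.429%) and 4 (2.18%). For CuO PEG 2.5, where limma called no gene at all, 1002 genes had an unadjusted p below 0.05. The single call at each lowest dose was Spp1. The median change of the 9 genes at 40 µg/mouse was 2.2 with CuO, 1.85 with CuO COOH, 2.03 with CuO NH3 and 0.56 with CuO PEG, while the median over all genes was within 0.009 of 0.

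Tnc, a hexameric glycoprotein scarce in normal adult lung and deposited during repair, rose with every material at the high dose. It spanned 6.18 to 6.92 (median 6.42) in PBS controls. With 40 µg/mouse it read 8.9, 8.82 and 8.88 for CuO, 9.22, 9.29 and 9.19 for CuO COOH, 8.92, 9.19 and 8.75 for CuO NH3, and 7.32, 7.49 and 7.37 for CuO PEG. Every exposed sample lay above every control, and CuO PEG lay below the others. The rises were 2.48 (5.57-fold, SE 0.28, adjusted p = 1.65e-06), 3.06 (8.36-fold, SE 0.27, adjusted p = 9.9e-08), 2.5 (5.65-fold, SE 0.2, adjusted p = 3.38e-09) and 0.98 (SE 0.23, adjusted p = 0.0227). The CuO value was 1.97 (adjusted p = 0.0566) without CuO 40 replicate 2 and the CuO PEG value 0.7 (adjusted p = 0.21) without CuO PEG 40 replicate 2. Fitted by probe with limma, the CuO PEG value was 1.29 (adjusted p = 0.0065) for one Tnc probe and 0.66 (adjusted p = 0.322) for the other. With samples of slides 4 to 6 only, the CuO PEG 40 calls of Tnc (0.72, adjusted p = 0.582), Thbs1 (0.87, adjusted p = 0.436) and Fn1 (1.02, adjusted p = 0.21) were lost. At 10 µg/mouse Tnc was called with CuO COOH (2.33, adjusted p = 8.38e-05) and CuO NH3 (0.85, adjusted p = 0.0134, and 0.74 with 0.0831 without CuO NH3 10 replicate 1). With CuO 10 it was not called (0.89, adjusted p = 0.103), but was with slide and position in place of array (0.75, adjusted p = 0.00152) and with array as a random block (0.91, adjusted p = 1.5e-05).

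Tnc also rose with all 4 materials at 40 µg/mouse under OVA. OVA controls spanned 6.44 to 7.36 (median 6.97). CuO 40 + OVA read 8.06, 8.79 and 8.01, CuO COOH 40 + OVA 8.95, 8.94 and 9.45, CuO NH3 40 + OVA 8.51, 8.76 and 8.95, and CuO PEG 40 + OVA 7.7, 7.45 and 7.92, so all exposed samples were above all controls. The rises were 1.76 (adjusted p = 0.00176), 1.77 (adjusted p = 1.08e-05), 1.64 (adjusted p = 0.000157) and 1.04 (adjusted p = 0.0407). Without CuO 40 + OVA replicate 2 the first was 1.51 (adjusted p = 0.121), and the last was 0.91 (adjusted p = 0.151) without CuO PEG 40 + OVA replicate 1 and 0.69 (adjusted p = 0.225) with loess normalization.

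For Thbs1 too the CuO PEG samples lay below those of the other materials. Against 8.1 to 8.73 in PBS controls, the samples at 40 µg/mouse read 10.65, 10.33 and 10.59 (CuO), 10.69, 10.59 and 10.85 (CuO COOH), 10.56, 10.61 and 10.03 (CuO NH3) and 9.45, 9.22 and 8.98 (CuO PEG). No exposed sample overlapped the controls. The rises were 2.25 (4.77-fold, SE 0.3, adjusted p = 1.19e-05), 2.39 (5.23-fold, SE 0.29, adjusted p = 5.42e-06), 2.35 (5.1-fold, SE 0.21, adjusted p = 1.89e-08) and 1.28 (SE 0.25, adjusted p = 0.00429). Without CuO 40 replicate 2 the first was 1.95 (adjusted p = 0.0777), and without CuO PEG 40 replicate 2 the last was 0.98 (adjusted p = 0.0524). Leaving out PBS replicate 1 ended the CuO COOH 40 calls of Thbs1 (1.85, adjusted p = 0.056), Fn1 (1.46, adjusted p = 0.0844), Fbln2 (1.03, adjusted p = 0.32) and Sparc (0.51, adjusted p = 0.482). Under OVA it was called with CuO COOH 40 (0.93, adjusted p = 0.00878, and 0.84 with 0.338 without OVA replicate 1) and CuO NH3 40 (1.36, adjusted p = 0.00107), and was 1.12 (adjusted p = 0.0574) with CuO and 0.89 (adjusted p = 0.0972) with CuO PEG.

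Fibronectin is a plasma and tissue glycoprotein that forms the provisional matrix of wounds. In PBS-challenged mice Fn1 read 12.48, 12.53 and 12.54 with CuO 40, 12.28, 12.36 and 12.65 with CuO COOH 40, 13.17, 13.35 and 13.09 with CuO NH3 40, and 11.96, 12.03 and 11.98 with CuO PEG 40, all above the PBS controls. The rises were 2.21 (4.63-fold, SE 0.26, adjusted p = 2.42e-06), 1.85 (SE 0.25, adjusted p = 1.9e-05), 2.08 (SE 0.18, adjusted p = 1.22e-08) and 0.83 (SE 0.22, adjusted p = 0.037). The CuO PEG call was lost without any 1 of its 3 samples (0.76 to 0.97). Fitted by probe with limma, it was 1.02 (adjusted p = 0.00499) for one Fn1 probe. The other Fn1 probes gave 0.75 (adjusted p = 0.414) and 0.73 (adjusted p = 0.208). Under OVA the same gene was not called with any material in the array-adjusted fit: 12.11, 12.13 and 12.51 with CuO 40 lay inside the OVA control range of 11.6 to 12.72, as did CuO COOH 40 (12.25, 12.26 and 12.04) and CuO PEG 40 (12.13, 12.04 and 12.35). The CuO NH3 40 + OVA samples read 12.82, 13.05 and 13.06, above all OVA controls, with a fitted difference of 0.63 (adjusted p = 0.0585). That difference was called with slide and position in place of array (0.67, adjusted p = 5.18e-05), with array as a random block (0.85, adjusted p = 4.19e-06), with the replicate block (1.13, adjusted p = 3.74e-11), with the brightest probe (0.73, adjusted p = 0.0196) and with dim probes left out (0.63, adjusted p = 0.0482). The replicate block also called Fn1 in CuO NH3 2.5 + OVA (0.76) and CuO NH3 10 + OVA (0.62).

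Lox rose with the 3 materials other than CuO PEG under both challenges at 40 µg/mouse. PBS controls spanned 8.07 to 8.61, and the exposed samples read 9.83, 10.43 and 10.45 (CuO), 10.54, 9.8 and 10.43 (CuO COOH) and 10.26, 10.08 and 10.09 (CuO NH3). All 9 were above the controls, by 2.2 (4.59-fold, SE 0.22, adjusted p = 3.11e-07), 2.2 (SE 0.21, adjusted p = 2e-07) and 2.03 (4.09-fold, SE 0.15, adjusted p = 1.43e-09). CuO PEG 40 read 8.88, 8.61 and 8.97, a difference of 0.56 (adjusted p = 0.117). Against OVA controls (8.2 to 9.23) the CuO 40 + OVA samples read 10.34, 10.04 and 9.77, the CuO COOH 40 + OVA samples 10.23, 10.18 and 10.41, the CuO NH3 40 + OVA samples 9.91, 9.71 and 9.76 and the CuO PEG 40 + OVA samples 9.16, 8.89 and 9.21. The CuO PEG samples lay inside the control range (0.71, adjusted p = 0.0675) and the others above it, by 1.38 (adjusted p = 0.00157), 1.06 (adjusted p = 0.000186) and 1.07 (adjusted p = 0.00056). The CuO 40 + OVA value was 1.27 (adjusted p = 0.0857) without CuO 40 + OVA replicate 2, and the CuO COOH 40 + OVA value 0.86 (adjusted p = 0.113) without CuO COOH 40 + OVA replicate 1.

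Fbln2 rose with the same 3 materials at 40 µg/mouse and was not called at lower doses. PBS controls spanned 8.66 to 9.18, CuO 40 samples read 9.79, 10.5 and 10.06, CuO COOH 40 samples 10.26, 9.89 and 10.58, and CuO NH3 40 samples 10.51, 10.94 and 10.21. These 9 samples stood clear of the controls, with rises of 1.27 (SE 0.28, adjusted p = 0.00222), 1.33 (SE 0.27, adjusted p = 0.00162) and 1.5 (2.83-fold, SE 0.2, adjusted p = 4.14e-06). The CuO rise was 0.58 (adjusted p = 0.602) without CuO 40 replicate 2. CuO PEG 40 read 8.73, 8.97 and 8.53, a difference of -0.17 (adjusted p = 0.845). Under OVA, Fbln2 spanned 8.29 to 8.92 in controls and read 9.39, 9.88 and 9.66 with CuO 40, 10.19, 10.11 and 10.41 with CuO COOH 40, 10.08, 10.31 and 10.64 with CuO NH3 40, and 8.95, 8.61 and 8.81 with CuO PEG 40. The rises were 1.29 (adjusted p = 0.0169, and 0.94 with 0.233 without CuO 40 + OVA replicate 2), 1.85 (adjusted p = 5.53e-06), 1.46 (adjusted p = 0.000378), and with CuO PEG the difference was -0.13.

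Sparc, which encodes a collagen-binding matricellular protein, was called higher at 40 µg/mouse with CuO (0.87, adjusted p = 0.00163), CuO COOH (0.92, adjusted p = 0.00101) and CuO NH3 (0.63, adjusted p = 0.000745), and in the same materials + OVA (0.8, 0.82 and 0.6). Its values moved from 15.68 to 16.06 in PBS controls to 16.7, 16.1 and 16.6 with CuO 40, 16.21, 16.28 and 16.61 with CuO COOH 40, and 16.5, 16.44 and 16.48 with CuO NH3 40. These differences were small, and the 2 probes of the gene disagreed: one gave 0.27, 0.35 and 0.22 and the other 1.47, 1.49 and 1.04. With loess normalization the PBS contrasts fell to 0.07, 0.25 and 0.05 and none was called. None of the 7 Sparc calls held under all processing alternatives.

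Postn, whose product periostin is known from allergic airways, and Tgfb1 had the narrowest ranges. Their group means spanned 0.5 and 0.63 in all, and their exposed samples overlapped the controls in all 24 exposed groups. Tgfb1 was called in no comparison, with 9.06, 8.34 and 8.28 in CuO 40 against 8.02 to 8.66 in PBS controls (difference 0.47, adjusted p = 0.542). Postn was called once against controls, lower with CuO 40 (-1.02, 95% CI -1.71 to -0.32, adjusted p = 0.0394), where the samples read 11.09, 10.25 and 10.91 against 10.49 to 11.61. This call was lost without CuO 40 replicate 2 (-1.04, adjusted p = 0.418) or replicate 1 (-0.97, adjusted p = 0.0563), and was -0.45 with array as a random block.

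Against OVA controls 28 of 108 comparisons were called, all of them higher. CuO gave 0 at 2.5 µg/mouse (0% of all genes, with 910 genes at an unadjusted p below 0.05 in limma), 1 at 10 (0.267%) and 5 at 40 (1.58%). CuO COOH gave 0 (0.035%, with 1450 genes at an unadjusted p below 0.05), 3 (0.639%) and 6 (3.8%). CuO NH3 gave 1 (0.993%), 4 (2.5%) and 6 (3.97%). CuO PEG gave 0 (0.00438%), 0 (0%) and 2 (0.639%), with 1780 and 1290 genes at an unadjusted p below 0.05 at the lower doses. The calls at 10 µg/mouse beside Spp1 were Tnc and Lox with CuO COOH (0.86 and 0.8) and Tnc, Thbs1 and Lox with CuO NH3 (0.96, 1.03 and 0.83). Each was lost when a single sample was left out. Without CuO COOH 10 + OVA replicate 1 or OVA replicate 2 the adjusted p was 0.493 for Tnc and 0.463 for Lox, and without CuO NH3 10 + OVA replicate 3 or OVA replicate 7 it was 0.612 for Tnc, 0.695 for Thbs1 and 0.58 for Lox.

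**Figure D2:**
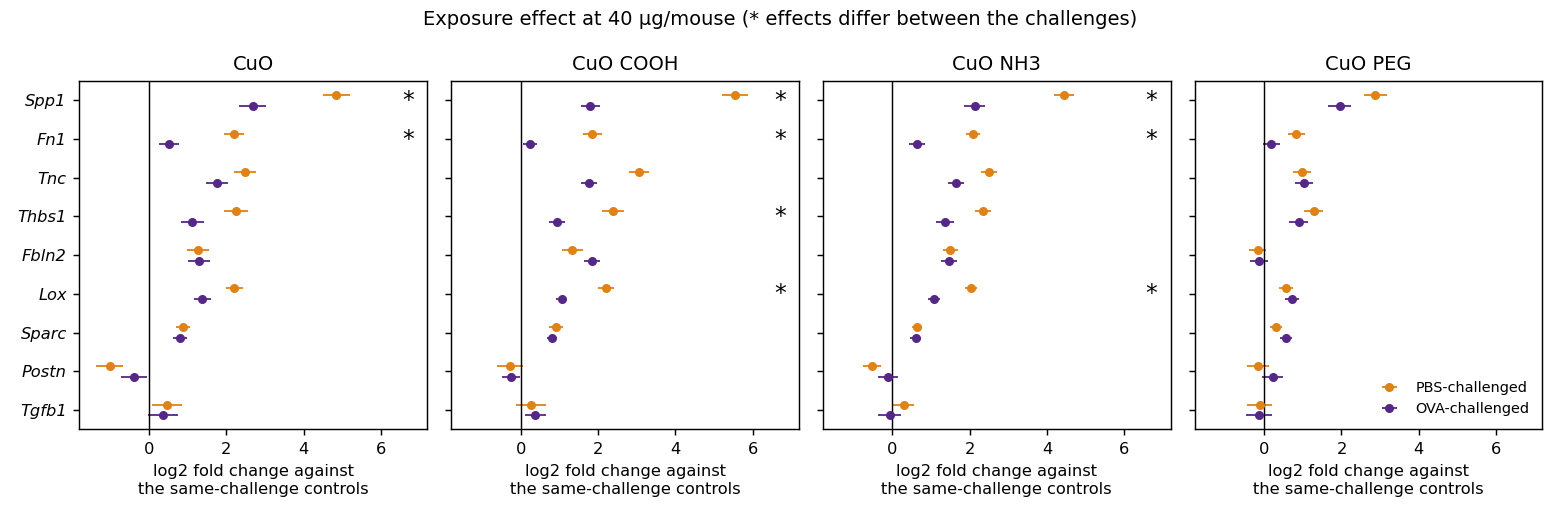
Log2 fold change at 40 µg/mouse against the controls of the same challenge for each gene and material, in PBS-challenged (orange) and OVA-challenged (purple) mice; points are fitted values, bars 1 SE, and asterisks mark genes whose difference between the challenges was called. Spp1 and Fn1 are marked with CuO, CuO COOH and CuO NH3, and no gene with CuO PEG.

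Whether exposure acted differently under the challenges was tested as the effect at 40 µg/mouse in OVA-challenged minus that in PBS-challenged mice. Of 36 such differences 9 were called, all of them smaller effects under OVA, in 4 genes. Spp1 differed by -2.17 with CuO (SE 0.39, 95% CI -2.98 to -1.36, adjusted p = 0.00397), by -3.75 with CuO COOH (SE 0.41, adjusted p = 6.5e-05) and by -2.3 with CuO NH3 (SE 0.35, adjusted p = 0.000411). With slide and position in place of array these were -2.29, -2.49 and -2.07, all called, so the CuO COOH value was the one that depended most on the array terms. Its raw means at 40 µg/mouse were close in PBS- and OVA-challenged mice, 14.65 and 14.83 with CuO, 15.11 and 15.08 with CuO COOH, and 14.56 and 15.01 with CuO NH3, while the controls differed. Fn1 differed by -1.7 (SE 0.29, adjusted p = 0.00227), -1.6 (adjusted p = 0.00628) and -1.45 (adjusted p = 0.00185) with the same materials. Lox was called with CuO COOH (-1.14, adjusted p = 0.0207) and CuO NH3 (-0.96, adjusted p = 0.0158), and Thbs1 with CuO COOH (-1.45, adjusted p = 0.0374). Without PBS replicate 1 the CuO COOH values of Fn1 (-1.24, adjusted p = 0.299), Thbs1 (-0.95, adjusted p = 0.547) and Lox (-1.4, adjusted p = 0.127) were not called, the Lox value was -0.38 (adjusted p = 0.26) with slide and position as terms, and Lox with CuO NH3 was -0.76 (adjusted p = 0.124) without OVA replicate 8.

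Over all genes 1.11% were called in this test with CuO against 2 of the 9, 1.05% with CuO COOH against 4, 1.59% with CuO NH3 against 3 and 0% with CuO PEG against 0 (1114 genes at an unadjusted p below 0.05 in limma). For CuO PEG the Spp1 difference was -0.93 (95% CI -1.79 to -0.06, adjusted p = 0.967), and it was -1.9 (adjusted p = 0.00411) with slide and position in place of array. Tnc differences of -0.71, -1.3 and -0.86 with the other materials were not called (adjusted p = 0.443, 0.0515 and 0.145). Fbln2 differences were 0.02, 0.52 and -0.04. The CuO calls were lost without single samples, Spp1 at -1.87 (adjusted p = 0.164) without CuO 40 replicate 2 and Fn1 at -1.46 (adjusted p = 0.153) without CuO 40 + OVA replicate 2.

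**Figure D3:**
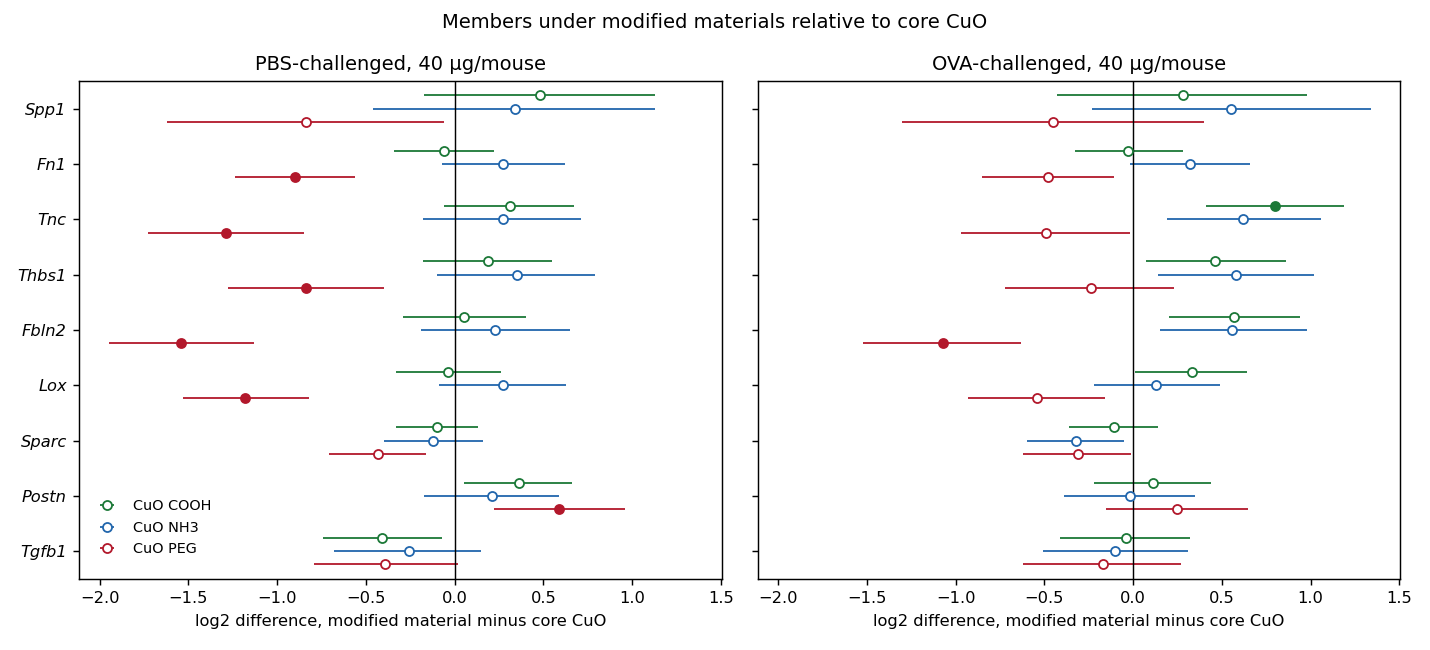
Log2 difference between each modified material and core CuO at 40 µg/mouse for each gene, in PBS-challenged (left) and OVA-challenged (right) mice; points are fitted values, bars 95% confidence intervals, and filled points were called. In PBS-challenged mice CuO PEG was called lower than core CuO for Fn1, Tnc, Thbs1, Fbln2 and Lox.

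Each modified material was set against core CuO of equal dose and challenge, 162 comparisons over the 9 genes with p adjusted over all genes, and 11 were called, 9 lower and 2 higher, while 40 had an unadjusted p below 0.05. Of these 11 calls 10 were with CuO PEG. At 40 µg/mouse in PBS-challenged mice (4.38% of all genes called) CuO PEG differed from CuO by -1.54 for Fbln2 (adjusted p = 1.41e-06), -1.29 for Tnc (adjusted p = 5.31e-05), -1.18 for Lox (adjusted p = 8.1e-06), -0.9 for Fn1 (95% CI -1.24 to -0.56, adjusted p = 0.000242) and -0.84 for Thbs1 (adjusted p = 0.00634). The Thbs1 call was lost with its brightest probe (-0.63, adjusted p = 0.105) and the Fn1 value fell to -0.53 with the replicate block. Postn was 0.59 higher (adjusted p = 0.0256, and 0.37 without CuO 40 replicate 2, no longer called). Spp1 was not called at this dose with slide and position as terms (-0.84, 95% CI -1.62 to -0.06, adjusted p = 0.16), but was with array terms (-1.97, adjusted p = 0.0151), with array as a random block (-1.31, adjusted p = 0.00191) and with the replicate block (-1.23, adjusted p = 0.00161), and the samples did not overlap (13.34 to 13.47 with CuO PEG against 14.37 to 14.99 with CuO). It was called at 2.5 µg/mouse (-2.05, SE 0.41, 95% CI -2.88 to -1.22, adjusted p = 0.0015, with 1.86% of all genes called) and at 10 (-1.53, SE 0.38, 95% CI -2.29 to -0.78, adjusted p = 0.0203, with 1.06%). The value at 10 kept its size but not its call, at -1.57 to -1.41 (adjusted p = 0.0507 to 0.104), without CuO 10 replicate 2 or 3 or without CuO PEG 10 replicate 2 or 4. Lox was also lower with CuO PEG 2.5 (-0.66, adjusted p = 0.0358, and -0.48 with 0.284 without CuO PEG 2.5 replicate 3). These materials lay on different slides, and slide was a term of the fit that only the control groups tie together. Doses were matched by mass of material and not of copper, so coating and copper dose cannot be told apart in these comparisons at equal mass. The authors measured less copper per mass in CuO PEG than in core CuO. Raw means with CuO PEG 40 and CuO 10 were 13.41 and 13.49 for Spp1, 7.39 and 7.41 for Tnc, and 9.22 and 9.17 for Thbs1. They were 11.99 and 11.54 for Fn1, 8.82 and 9.05 for Lox, and 8.74 and 8.97 for Fbln2. The difference between these 2 groups was not tested.

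Under OVA 1 CuO PEG difference was called, Fbln2 at 40 µg/mouse (-1.07, adjusted p = 0.0133, with 0.394% of all genes called), and this was -1.17 (adjusted p = 0.0554) without CuO 40 + OVA replicate 1. Spp1 differed by -1.6 at 2.5 µg/mouse (95% CI -2.54 to -0.67, adjusted p = 0.438, with 0.00438% of genes called) and by -0.29 and -0.45 at the higher doses. The count depended on the fit. Array as a random block also called Spp1 (-1.95, adjusted p = 0.000192), Thbs1 (-0.85) and Lox (-0.74) lower at 2.5 µg/mouse + OVA, and Tnc (-0.59), Thbs1 (-0.63) and Lox (-0.96, adjusted p = 7.99e-05) lower at 40, and the replicate block called the same 6 with Spp1 at -1.93 and Lox at 40 µg/mouse at -0.96. At 10 µg/mouse + OVA limma called 0% of genes, with 1406 at an unadjusted p below 0.05.

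For the carboxylated and aminated materials few of the 9 genes were called against core CuO. Of 54 comparisons with CuO COOH 1 was called, Tnc at 40 µg/mouse + OVA (0.8 higher, 95% CI 0.41 to 1.19, adjusted p = 0.0408, with 0.319% of all genes called), and it was lost without any 1 of 5 samples (0.64 to 0.9) and was 0 when fitted with array. Of 54 with CuO NH3 limma called 0 with slide and position as terms. Array as a random block and the replicate block both called Fn1 higher with CuO NH3 at 40 µg/mouse (0.63 and 0.67), at 2.5 + OVA (0.61 and 0.63) and at 40 + OVA (0.74 and 0.73), and Fbln2 higher at 40 + OVA (0.66 and 0.69), and the replicate block called Spp1 lower at 2.5 (-0.91, adjusted p = 0.0287). Neither fit holds a slide term. The background was 0.188%, 0.0175% and 0.109% of genes for CuO COOH at 2.5, 10 and 40 µg/mouse, and 0%, 0.162% and 0.123% for CuO NH3. Under OVA it was 0% and 0.00438% for CuO COOH at 2.5 and 10, and 0%, 0% and 0.372% for CuO NH3. Where limma called no gene, 1154 (CuO NH3 2.5), 1004 (CuO COOH 2.5 + OVA), 1251 (CuO NH3 2.5 + OVA) and 1549 (CuO NH3 10 + OVA) genes had an unadjusted p below 0.05. In Spp1 the CuO COOH differences were -1.11 (95% CI -1.77 to -0.46, adjusted p = 0.113) at the lowest dose and 0.48 (95% CI -0.17 to 1.13, adjusted p = 0.582) at the highest, and the CuO NH3 difference at 40 µg/mouse was 0.34 (95% CI -0.46 to 1.13, adjusted p = 0.915). The widest 95% intervals spanned 1.48 for CuO COOH, 1.74 for CuO NH3 and 1.87 for CuO PEG, so a difference above 1.5-fold can lie inside such an interval.

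Dose was tested as 40 against 2.5 µg/mouse of the same material. In PBS-challenged mice 6 of 9 genes were called with CuO (4.18% of all genes), 5 with CuO COOH (0.871%), 6 with CuO NH3 (7.15%) and 5 with CuO PEG (4.35%). Spp1 rose by 3 with CuO (adjusted p = 0.000485), by 3.28 with CuO COOH, by 2.78 with CuO NH3 and by 3.36 with CuO PEG (adjusted p = 3.81e-06). Tnc rose by 2.22, 2.47, 2.11 and 1.17, Thbs1 by 1.81, 1.51, 1.44 and 1.37, and Lox by 1.91, 2.17, 1.48 and 1.12. All 6 CuO calls were lost without CuO 40 replicate 2 (0.77 to 2.43), and the CuO COOH rise of Spp1 was 2.81 (adjusted p = 0.113) without CuO COOH 40 replicate 1. That sample also decided the CuO COOH rise of Lox (1.96, adjusted p = 0.0599), and Thbs1 with CuO COOH was lost without any 1 of 5 samples (1.12 to 2.13). Without CuO PEG 2.5 replicate 3 the CuO PEG rises of Tnc (1.06, adjusted p = 0.29), Thbs1 (1.12, adjusted p = 0.289), Lox (0.65, adjusted p = 0.359) and Fn1 (0.84, adjusted p = 0.359) were not called. In OVA-challenged mice the calls were 0 with CuO (0.0963%), 0 with CuO COOH (0.00875%), 2 with CuO NH3 (0.7%) and 1 with CuO PEG (0.0131%). Over both challenges 25 of 72 comparisons were called by limma and 43 had an unadjusted p below 0.05. The calls under OVA were Tnc (1.31, adjusted p = 0.0162) and Fbln2 (1.42, adjusted p = 0.0086) with CuO NH3 and Spp1 (2.19, adjusted p = 0.0254) with CuO PEG. All 3 were lost without single samples, Tnc without CuO NH3 40 + OVA replicate 1 (1.1, adjusted p = 0.177) or CuO NH3 2.5 + OVA replicate 3 (1.02, adjusted p = 0.103), Fbln2 without the former (1.14, adjusted p = 0.131) or CuO NH3 2.5 + OVA replicate 2 (1.31, adjusted p = 0.0728), and Spp1 without CuO PEG 2.5 + OVA replicate 1 (1.95, adjusted p = 0.258).

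The dose comparison under OVA depended strongly on the fit. With array terms the CuO contrast rests on 1 sample at 2.5 + OVA. With slide and position in place of array, which lets all samples weigh in, 4 genes were called higher with CuO (Tnc 1.06, Fbln2 1.51 with an adjusted p of 4.21e-09, Lox 1.06 and Sparc 0.87) and 5 with CuO COOH (Spp1 1.42, Tnc 1.72, Thbs1 1.18, Fbln2 1.52 and Lox 1.1). Thbs1 (0.81) and Lox (0.88) were added with CuO NH3, and Tnc (0.85), Thbs1 (0.74) and Lox (0.72) with CuO PEG. Array as a random block and the replicate block added the same genes.

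Genes that act with these 9 moved in both directions. At 40 µg/mouse the share of all genes called, in either direction, was 14% with CuO, 10.3% with CuO COOH, 13.2% with CuO NH3 and 2.18% with CuO PEG, and the counts below are to be read against it. At most 3 called genes per list and comparison are named. A material not given beside a gene therefore need not be one without a call. Of 18 matrix receptor genes 1 rose and 3 fell with CuO 40, 2 rose and 3 fell with CuO COOH 40, 0 rose and 3 fell with CuO NH3 40 and none was called with CuO PEG 40, with list medians between -0.01 and 0.14. Among them Itga8, the integrin subunit whose dimer binds osteopontin, fibronectin and tenascin-C, fell by 2.68, 1.59 and 1.73 with the first 3 materials. Sdc1 (syndecan-1) rose by 1 with CuO and 0.91 with CuO COOH, and Cd44, a receptor of osteopontin, rose by 0.92 with CuO COOH and by 0.62 with OVA alone. Of 25 genes of TGF-beta activation and signalling 4, 4, 5 and 1 rose and 6, 6, 6 and 0 fell with CuO, CuO COOH, CuO NH3 and CuO PEG at 40 µg/mouse, with medians of -0.16, -0.15, -0.13 and -0.06. The activin subunit gene Inhba rose by 2.56, 2.3 and 1.97 with the first 3, whereas Ltbp4, which holds latent TGF-beta in the matrix, fell by 1.99, 1.93 and 1.87, and the inhibitory Smad6 fell by 1.66 with CuO and 1.32 with CuO NH3.

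Of 14 genes of the lysyl oxidase family and collagen crosslinking 5, 3, 5 and 0 rose and 1, 0, 1 and 0 fell, with medians of 0.55, 0.34, 0.46 and -0.01. Loxl2, a paralogue of Lox, rose by 1.21, 1.11 and 1.3, and the collagen chaperone gene Serpinh1 by 1.41, 0.9 and 1.23. Of 32 other matrix glycoproteins 8, 10, 9 and 1 rose and 8, 5, 7 and 1 fell, with medians of 0.03, -0.04, 0.14 and -0.05. Vcan (versican) rose by 1.86, 1.67 and 2.19, Eln (elastin) by 2.13 with CuO COOH and 1.93 with CuO NH3, Emilin2 by 2.29 with CuO, 1.82 with CuO NH3 and 1.44 with CuO PEG, and Tnxb, a tenascin of resting connective tissue, fell by 2.07 with CuO and 1.86 with CuO COOH. Under OVA challenge Loxl2 rose with all 4 materials at 40 µg/mouse, by 0.81, 0.99, 0.86 and 0.59, and Ltbp4 fell by 1.22, 0.77, 1.11 and 1.07.

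Cell type markers moved with these groups. For the summed level of a list, the linear intensities of its markers were added and put on the log2 scale, so bright markers weigh most. This summed level of 13 macrophage and monocyte markers was 15.98 to 16.51 in PBS controls and 17.16 to 18.24 in OVA controls. It was 16.05 to 16.25 with CuO 40, 16.05 to 16.29 with CuO COOH 40, 16.14 to 16.35 with CuO NH3 40 and 16.26 to 16.5 with CuO PEG 40. The sum at 40 µg/mouse was thus inside the PBS range, although 5, 5, 6 and 2 of the 13 were called higher and 2 lower with CuO NH3, among them Trem2 (1.97, 1.75, 2.4 and 1.18) and Gpnmb (2.21, 1.84 and 2.24 with the first 3), both of which mark lipid-laden and scar-associated macrophages. The mean of the log2 levels of these 13 markers, in which each weighs alike, was 10.05 to 10.52 in PBS controls. With CuO, CuO COOH and CuO NH3 at 40 µg/mouse it was 10.64 to 10.7, 10.7 to 10.88 and 10.72 to 10.77. These values lay above all PBS controls, while CuO PEG 40 gave 10.44 to 10.89 and OVA controls 11.35 to 11.67. With OVA alone 8 of the 13 were called higher, led by Chil3 (3.94) and Trem2 (2.28). In exposed OVA groups at 40 µg/mouse the macrophage sum was 16.49 to 16.92 with CuO, 16.62 to 17.84 with CuO COOH, 16.57 to 17.76 with CuO NH3 and 17.01 to 17.15 with CuO PEG. The mean of the log2 levels overlapped the OVA controls, at 11.14 to 11.44, 11.18 to 11.65, 11.21 to 11.68 and 11.44 to 11.69. Against OVA controls Gpnmb rose with all 4 materials (2.9, 2.29, 2.17 and 2.93) and Fcgr1 with CuO COOH (2.06). Chil3 fell with CuO COOH (-1.82), Marco with CuO NH3 (-2.33) and Itgax with CuO and CuO NH3 (-1.15 and -1.3). Of 9 neutrophil markers measured 5, 1, 5 and 0 were called higher at 40 µg/mouse and 1 lower with CuO and with CuO NH3, with Ltf at 3.64, 2.67 and 2.62. Their summed level was 16.01 to 16.58 in PBS controls and 16.36 to 16.75, 16.17 to 16.27, 16.23 to 16.63 and 16.15 to 16.38 at 40 µg/mouse, so it overlapped the controls. The mean of their log2 levels was 9.86 to 10.42 in PBS controls. With CuO, CuO COOH and CuO NH3 at 40 µg/mouse this mean was 10.77 to 11.25, 10.59 to 10.77 and 10.96 to 11.31, above all PBS controls. With CuO PEG 40 it was 10.2 to 10.46, which overlapped them. Of 8 platelet markers only Pf4 was called at 40 µg/mouse against PBS (1.87, 1.48 and 2 with the first 3 materials) and with OVA alone (1.32). Ppbp was called with CuO NH3 40 + OVA (1.06, adjusted p = 0.0484). Their summed level was 11.12 to 11.57 in PBS controls and 11.8 to 12.4 in OVA controls. With the 4 materials at 40 µg/mouse it was 12.01 to 13.23, 11.89 to 12.59, 12.49 to 12.9 and 11.76 to 11.95. The mean of their log2 levels was 7.07 to 7.39 in PBS controls and 7.02 to 7.43 in OVA controls. At 40 µg/mouse this mean was 7.45 to 7.71, 7.37 to 7.58, 7.54 to 7.66 and 7.39 to 7.54. Fibroblast markers, 8 in all, gave 14.32 to 14.6 in PBS controls and 14.09 to 14.91, 14.21 to 14.29, 14.34 to 14.54 and 14.48 to 14.82 at 40 µg/mouse, with none called higher. Pdgfra (-0.99) and Tcf21 (-1.1) were called lower with CuO 40, and Pdgfra (-0.74) with CuO NH3 40. With OVA alone Pdgfra (-0.95) and Col13a1 (-0.59) were called lower. The summed level of 7 smooth muscle and pericyte markers was 14.08 to 14.51 in PBS controls. At 40 µg/mouse it was 14.06 to 14.53, 14.12 to 14.53, 14.49 to 14.7 and 14.09 to 14.55. Des was called higher with CuO 40 (1.07) and CuO NH3 40 (0.79), and Acta2 with CuO NH3 40 (0.63). Pdgfrb was called lower with CuO 40 (-1). Endothelial markers were lower, 15.9 to 16.12 in PBS controls and 14.76 to 15.41 with CuO, CuO COOH and CuO NH3 at 40 µg/mouse. The summed level of 5 ciliated cell markers was 14.32 to 14.71 in PBS controls, 13.44 to 14.42 in OVA controls, and 13.09 to 14.02, 12.92 to 13.38, 12.86 to 13.28 and 13.84 to 14.03 with CuO, CuO COOH, CuO NH3 and CuO PEG at 40 µg/mouse. The mean of their log2 levels was 10.07 to 10.31 in PBS controls and 9.82 to 10.44, 9.63 to 10.08, 9.37 to 9.68 and 9.91 to 10.05 with these materials. The markers moved apart. Tppp3 fell by 1.72, 1.77 and 1.97 with the first 3, and Dnah5 by 1.3 with CuO NH3 40. Foxj1 rose by 1.54 with CuO 40 and 0.99 with CuO COOH 40, and Tekt1 by 1.05 with CuO 40. The part of these shifts in the changes of the 9 genes was not tested. The tissue label held, as all 6 alveolar type 2 markers were well above background.

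The 9 genes did not share 1 pattern. Over the 26 group means Spp1 correlated with Fn1 and Thbs1 at Pearson r = 0.92 each, with Lox at 0.84, with Tnc at 0.8 and with Fbln2 at 0.44, whereas Tnc correlated with Lox at 0.95 and with Fbln2 at 0.86. Postn was negatively correlated with the others (-0.62 to -0.36), and Fbln2 with Tgfb1 gave -0.04. Groups share controls, slides and arrays, so these values only describe the pattern. Among 14280 genes well above background in at least 45 samples, the profiles most like Spp1 were Pbk (0.981), Spc24 (0.973) and Mad2l1 (0.971), those most like Fn1 Cdkn3 (0.969), Cdc25c (0.964) and C1qtnf6 (0.964), and those most like Thbs1 Psrc1 (0.981), Tpmt (0.977) and 1110038B12Rik (0.976). Tnc was close to Etv4 (0.978) and Syt8 (0.975), Lox was closest to Gk (0.975), Gpx7 (0.974) and Fbn1 (0.972), and Fbln2 to Matn2 (0.958), Prrx1 (0.948) and Ppp1r13l (0.947). For Sparc the closest were Slc40a1 (0.917), Eln (0.916) and Krt81 (0.909), for Postn Usp25 (0.879), Ints6l (0.872) and Casd1 (0.85), and for Tgfb1 Twf2 (0.933), Fmnl1 (0.916) and Bcat2 (0.899).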

How the data were processed

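Lung RNA was labelled with Cy3 or Cy5 and hybridised to 2-colour Agilent mouse arrays, 2 different samples per array on 43 arrays and 1 on 3. Per the labels and file headers, the authors deposited scanner output of Agilent Feature Extraction (12.0.2.2 in the headers), from which the median foreground intensity of each sample's own channel was used. A table of normalized log2 values that the authors deposited as well was used as an alternative, and their ComBat batch correction was not rerun. Foreground intensities, without background subtraction, were log2-transformed and quantile normalized over the 89 samples after control spots and outlier flags were left out. Probes were averaged to genes through unversioned RefSeq accessions (32994 of 56605 probes had a gene), and 60 of 22911 genes with a missing value were left out. The precision is limited by the number of arrays.

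Models were fitted with limma 3.58.1 under R 4.3.3, and files were read with data.table (version 1.17.8). Comparisons with controls, of doses and of challenges were fitted on all 26 groups with dye and array as terms (17 residual degrees of freedom), and comparisons of materials with dye, slide and array position (50 residual degrees of freedom). Benjamini-Hochberg adjustment ran over all 22851 genes. The scripts were tested on simulated data. Nothing states that pools came from separate experiments, so p-values measure only the spread between these samples. The alternatives were background correction, loess normalization, the dim-probe filter, probe choice, batch terms, replicate block, slide set, value table, fold threshold and each sample left out. All 9 genes were named in every comparison, with up to 3 called genes of a list with the largest change and the 3 most like profiles per gene, of which 1 is not reported here. Genes, lists and tests were chosen with earlier results of these data known. Same-numbered samples did not deviate together (every pair over 0.1 in 0 of 24 groups, correlations -0.28 to 0.34).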

Additional observations from a re-analysis of the deposited data

Results flagged for a closer look

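The exposure effect at 40 µg/mouse differed between the challenges, by the test of the difference itself, in 9 of 36 tests of the 9 genes. In each of these the effect was smaller in OVA-challenged mice. With CuO these were Spp1 (-2.17) and Fn1 (-1.7). With CuO COOH they were Spp1 (-3.75), Fn1 (-1.6), Thbs1 (-1.45) and Lox (-1.14). With CuO NH3 they were Spp1 (-2.3), Fn1 (-1.45) and Lox (-0.96). Over all genes 1.11% were called with CuO, 1.05% with CuO COOH, 1.59% with CuO NH3 and 0% with CuO PEG. Of the 9 calls 6 were lost when some sample was left out. Lox with CuO COOH was -0.38 with slide and position in place of array, not called. Among 36 sets of samples checked for a sample far from the rest of its group none was found.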

How the results depend on the processing

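Of 119 calls of the 9 genes, 84 held under every processing alternative, 50 whichever single sample was left out and 44 under both, and 1 changed sign: Sparc in CuO NH3 40 + OVA was -0.03 (adjusted p = 0.964) against OVA with loess normalization. In the fits with array terms a left-out sample took with it the weight of the other sample on its array. There a lost call can reflect the pair and not 1 sample. The 43 calls against PBS controls ranged from 36 to 44 with a sample left out, the 28 against OVA controls from 22 to 30, the 11 between materials from 9 to 12, the 25 between doses from 19 to 27 and the 9 between challenges from 6 to 11, and the 3 of OVA stayed at 3. With the replicate block there were 24 calls between materials, 40 between doses and 14 between challenges, and with array as a random block 23, 42 and 15. Slide and position in place of array gave 42 between doses and 15 between challenges. Array in place of slide and position, and the brightest probe, each gave 7 between materials. The replicate block gave 43, 31 and 3 calls against PBS controls, against OVA controls and for OVA. The causes were not tested. With 3 samples in most groups and arrays shared by groups, differences near the 1.5-fold threshold were not resolved.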
